A study of Homo sapiens with 6 samples.

Results

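The genes described here are 9 noncoding host genes of small nucleolar RNAs (snoRNAs), SNHG1, SNHG5, SNHG6, SNHG7, SNHG8, SNHG12, SNHG15, SNHG16 and GAS5, among the 30099 genes listed in each library. They were taken by symbol, through their Ensembl identifiers and the gene names of GENCODE release 29 (GRCh38), and all 9 were found. The cells were MDA-MB-231, a human triple-negative breast cancer cell line that serves as the control by its label, and cells of the same MDA-MB-231 background labelled Pep2-E3, with the genotype given as Pep-E3 and no account of what that name stands for or whether the cells are 1 clone. Each group had 3 libraries. The 9 genes were chosen by symbol with the FPKM differences between these groups in view, so those same FPKM values count as having chosen them. Their differences are therefore given as a description, with no p-value.

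A snoRNA host gene is transcribed and spliced, and its snoRNAs are cut out of the introns. The snoRNAs then guide chemical modification of ribosomal RNA: those with box C/D motifs direct ribose methylation and those with box H/ACA motifs direct the conversion of uridine to pseudouridine. The spliced exons of these host genes code for no known functional protein. Many host transcripts begin with a terminal oligopyrimidine (TOP) stretch, as ribosomal protein mRNAs do, and several are degraded by nonsense-mediated decay, the pathway that removes RNAs with early stop codons.

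What each host encodes in its introns is shown by 1 snoRNA from each of 6 hosts, printed as DNA in the direction of transcription from GENCODE release 29 (GRCh38). Capitals mark the letters TGATGA of box C within the first 20 bases and CTGA of box D within the last 18 bases of SNORD genes, and ACA near the end of SNORA genes.
SNORA17A in SNHG7, chr9:136726747-136726879, minus strand: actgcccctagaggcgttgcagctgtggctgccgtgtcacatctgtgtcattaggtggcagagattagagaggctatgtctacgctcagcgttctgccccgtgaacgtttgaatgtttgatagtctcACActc
SNORA24 in SNHG8, chr4:118279190-118279320, plus strand: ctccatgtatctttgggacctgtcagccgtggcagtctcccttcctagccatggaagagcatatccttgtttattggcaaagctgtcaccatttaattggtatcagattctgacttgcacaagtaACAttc
SNORA9 in SNHG15, chr7:44985378-44985510, minus strand: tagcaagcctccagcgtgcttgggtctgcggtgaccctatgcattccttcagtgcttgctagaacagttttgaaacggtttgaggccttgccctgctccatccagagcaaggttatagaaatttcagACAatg
SNORD27 in SNHG1, chr11:62855012-62855083, minus strand: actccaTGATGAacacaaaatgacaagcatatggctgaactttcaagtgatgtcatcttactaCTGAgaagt
SNORD50B in SNHG5, chr6:85677589-85677658, minus strand: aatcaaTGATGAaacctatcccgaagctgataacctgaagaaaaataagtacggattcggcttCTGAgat
SNORD1B in SNHG16, chr17:76561109-76561192, plus strand: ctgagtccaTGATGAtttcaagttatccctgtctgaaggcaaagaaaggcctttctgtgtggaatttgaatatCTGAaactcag
SNORA17A, SNORA24 and SNORA9 carry the ACA letters and sit in SNHG7, SNHG8 and SNHG15. SNORD27, SNORD50B and SNORD1B carry both box C and box D letters and sit in SNHG1, SNHG5 and SNHG16.

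By RefSeq gene names, SNHG1 holds 8 named box C/D snoRNAs, SNHG5 holds 2, SNHG6 holds 1 and SNHG16 holds 3. SNHG7 holds 2 box H/ACA snoRNAs, and SNHG8 and SNHG15 hold 1 each. SNHG12 and GAS5 hold both classes, with 1 box C/D and 3 box H/ACA snoRNAs in SNHG12 and 10 and 1 in GAS5. Of the snoRNAs that GENCODE places inside the 9 genes, SNORD99 in SNHG12 was the only one listed in the deposited data. It had 0, 3 and 1 fragments in the MDA-MB-231 libraries and 2, 1 and 3 in the Pep2-E3 libraries. By its names GENCODE places 0 inside GAS5 and 1 inside SNHG5, so the other RefSeq snoRNAs of these hosts were not looked up. The deposited tables list 230 snoRNA and small Cajal body RNA genes in all, of which 98 passed the filter used below. The values below are those listed for the host genes and do not measure the level of mature snoRNAs. The exon bases counted for a host include bases of its own snoRNAs as GENCODE places them. These were 15.3% of the exon bases in SNHG1, 14.2% in SNHG8, 9.35% in SNHG12, 7.14% in SNHG6 and 6.19% in SNHG7, and less in the others. Fragments of snoRNAs could thus be counted with their host, which was not tested.

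The starts of the host genes are shown because a TOP stretch lies at the very beginning of the RNA. RefSeq promoters (GRCh38.p14) were matched for 7 of the 9 genes, not for SNHG6 and SNHG15. The lines give 30 bases before and 30 bases from the annotated start, with capitals marking the longest run of at least 5 bases that opens with C, holds only C or T and begins within 10 bases of that start.
SNHG7, chr9:136728155-136728214, minus strand: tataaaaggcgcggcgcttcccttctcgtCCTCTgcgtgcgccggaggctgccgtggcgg
SNHG8, chr4:118278732-118278791, plus strand: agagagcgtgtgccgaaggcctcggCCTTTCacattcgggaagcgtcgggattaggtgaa
SNHG1, chr11:62855856-62855915, minus strand: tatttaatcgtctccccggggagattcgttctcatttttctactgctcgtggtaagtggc
SNHG5, chr6:85678704-85678763, minus strand: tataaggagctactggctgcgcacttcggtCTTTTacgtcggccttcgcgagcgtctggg
SNHG16, chr17:76557734-76557793, plus strand: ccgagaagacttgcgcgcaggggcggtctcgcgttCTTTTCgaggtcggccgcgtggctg
SNHG12, chr1:28581844-28581903, minus strand: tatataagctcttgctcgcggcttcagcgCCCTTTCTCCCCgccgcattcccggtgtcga
GAS5, chr1:173869016-173869075, minus strand: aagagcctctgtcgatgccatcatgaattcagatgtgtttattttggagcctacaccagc
Such a run was found in 5 of the 7 promoters, with a length of 12 bases in SNHG12, 6 in SNHG8 and SNHG16 and 5 in SNHG5 and SNHG7. Over all 27305 RefSeq promoters 31.3% had one, against 57.1% of 42 promoters of protein-coding snoRNA hosts and 52.6% of 19 promoters of other noncoding hosts. No run lay in the SNHG1 or GAS5 window, but the start that RefSeq gives lies 29 bases from the GENCODE start in SNHG1 and 163 bases from it in GAS5, so these letters may not be those of the RNA's beginning. The distance was 1259 bases in SNHG12, 53 in SNHG8 and at most 15 in the other 3. The letters CACGTG, a motif bound by MYC among other factors and the same on both strands, were in the 300 bases of the SNHG7 promoter and in none of the other 6, and in 7.43% of all promoters.

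SNHG7, SNHG8, SNHG15, SNHG1 and SNHG5 were higher in Pep2-E3, SNHG16 was lower, and SNHG6, SNHG12 and GAS5 did not pass the threshold. The threshold is a Benjamini-Hochberg adjusted p under 0.05 in limma's test of log2(FPKM + 1) over 14235 genes, where FPKM is fragments per exon kilobase, scaled to the library total. Of all genes tested 30.8% passed it, 14.6% higher and 16.2% lower in Pep2-E3. Because the 9 genes were listed with this contrast known, nothing is read from their own count of 5 higher and 1 lower. Their median log2 fold change was 0.22, and that of all tested genes was -0.02, with quartiles at -0.22 and 0.16.

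**Figure D1:**
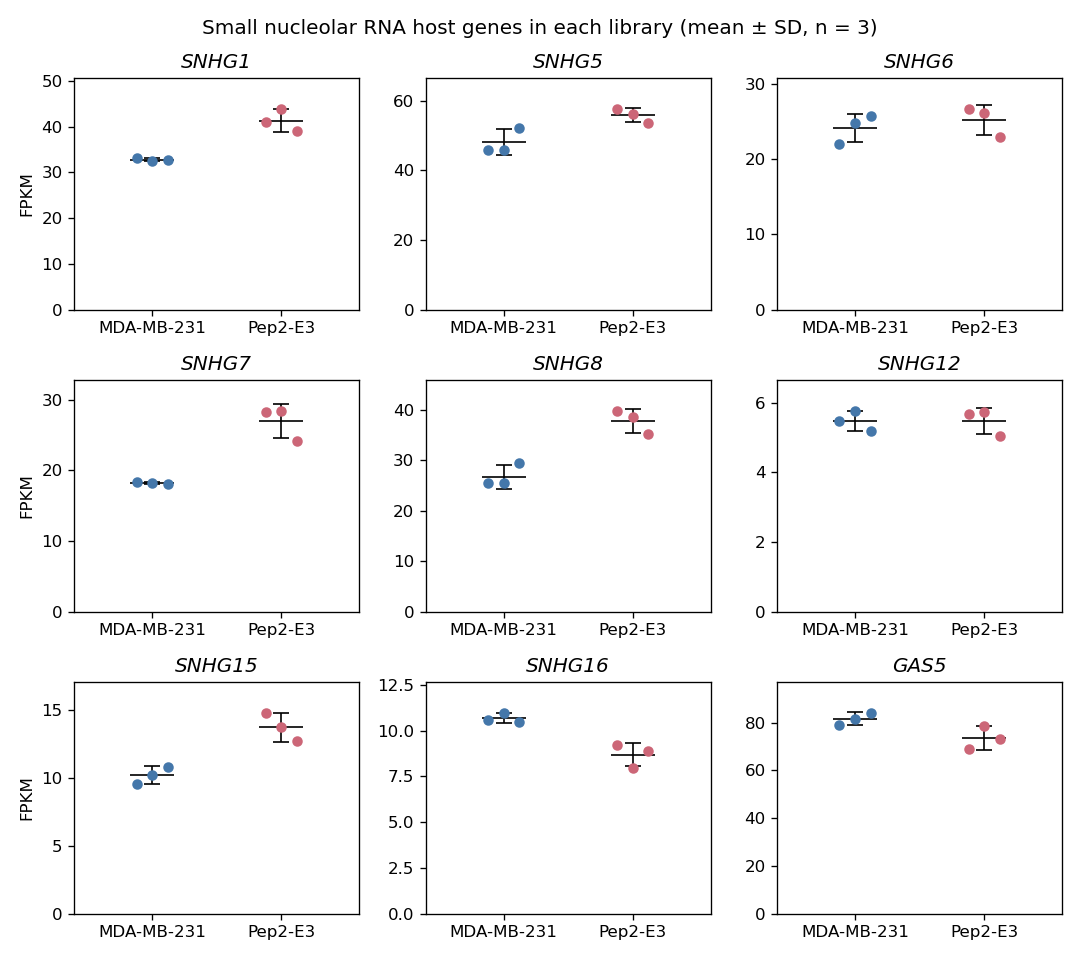
FPKM of the 9 host genes in each library (points), with the mean and SD of 3 libraries per group; each vertical axis starts at 0 and has its own scale. The groups do not overlap in 7 genes, and in SNHG6 and SNHG12 they do. Over all tested genes 48.8% have groups that do not overlap.

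Among the 9 genes, which were chosen with these values in view, the largest differences were in SNHG7, SNHG8 and SNHG15. These are the hosts of box H/ACA snoRNAs alone, and nothing is read from that about the class. SNHG7 (ENSG00000233016, chromosome 9, 136721366 to 136728184, minus strand), host of SNORA17A and SNORA17B, had 18.3, 18.2 and 18.1 FPKM in the parental libraries, in replicate order here and below, and 28.3, 28.5 and 24.2 in Pep2-E3. The 3 parental libraries lay within 1 FPKM of each other, and Pep2-E3 replicate 3 was the lowest of its group. Mean FPKM rose 1.48-fold, from 18.2 ± 0.111 to 27.0 ± 2.44 (SD, n = 3 per group), and the log2 fold change was 0.54 ± 0.07 (SE). SNHG7 is the one host gene here with much overlap from a gene that is itself expressed. Of its exon bases 25.2% also lie in exons of DIPK1B on the opposite strand, which had 2.11 ± 0.213 FPKM in MDA-MB-231 and 1.99 ± 0.190 in Pep2-E3 (adjusted p = 0.658 in limma's test). The kit that the labels name does not mark strand, so fragments of both genes cannot be told apart there. Of the 50-base words of the longest SNHG7 transcript 41.5% occur, on either strand, in transcripts of other genes, most of them in DIPK1B.

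SNHG8 (ENSG00000269893, chromosome 4, 118278709 to 118279823, plus strand) hosts SNORA24. It had 25.4, 25.4 and 29.5 FPKM in the MDA-MB-231 libraries and 39.8, 38.5 and 35.2 in the Pep2-E3 libraries. All 3 Pep2-E3 values lay above the highest parental one, and the mean rose 1.41-fold (log2 fold change 0.49 ± 0.08, SE). SNHG8 is the shortest of the 9 genes, with 923 exon bases, and rests on 425 to 630 fragments per library.

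SNHG15 (ENSG00000232956, chromosome 7, 44983023 to 44986961, minus strand) hosts SNORA9. Its values were 9.54, 10.2 and 10.8 FPKM in the parental libraries and 14.8, 13.7 and 12.7 in Pep2-E3. The groups did not overlap, and the mean rose 1.35-fold (log2 fold change 0.40 ± 0.07, SE). SNHG7, SNHG8, SNHG15 and SNHG1 passed the threshold under all 17 alternative settings, including each of the 6 in which 1 library was left out.

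Among the hosts of box C/D snoRNAs alone the differences went both ways. SNHG1 (ENSG00000255717, chromosome 11, 62851988 to 62855914, minus strand), host of SNORD22 and of SNORD25 to SNORD31, had 33.1, 32.5 and 32.7 FPKM in MDA-MB-231 and 41.1, 44.0 and 39.0 in Pep2-E3. The parental values were again tightly grouped, and all Pep2-E3 values lay above them. The mean rose 1.26-fold, from 32.8 ± 0.312 to 41.3 ± 2.51 FPKM, with a log2 fold change of 0.33 ± 0.05 (SE).

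SNHG1 starts 188 bases from the start of SLC3A2 on the opposite strand. SLC3A2, the heavy chain of amino acid transporters at the cell surface, had 53.1, 52.3 and 53.2 FPKM in the parental libraries and 77.3, 71.4 and 64.0 in Pep2-E3. It rose 1.34-fold (log2 fold change 0.41 ± 0.07, SE, adjusted p = 0.00666 in limma's test), so both genes that start at this place were higher in Pep2-E3.

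SNHG5 (ENSG00000203875, chromosome 6, 85660950 to 85678748, minus strand), host of SNORD50A and SNORD50B, had 45.7, 45.9 and 52.2 FPKM in MDA-MB-231 and 57.7, 56.1 and 53.5 in Pep2-E3. The groups stood apart by little, with MDA-MB-231 replicate 3 just under Pep2-E3 replicate 3. The mean rose 1.16-fold (log2 fold change 0.22 ± 0.06, SE). The call held under 8 of the 17 alternative settings, and of the 6 that leave out 1 library it held only without MDA-MB-231 replicate 3, where the log2 fold change was 0.28. Without the other libraries it was 0.18 to 0.24 and did not pass.

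SNHG6 (ENSG00000245910, chromosome 8, 66921684 to 66926398, minus strand), host of SNORD87, had 22, 24.8 and 25.7 FPKM in the parental libraries and 26.7, 26.1 and 22.9 in Pep2-E3. The groups overlapped, and the log2 fold change was 0.06 ± 0.08 (SE). Of its exon bases 29.3% lie in exons of MCMDC2 on the opposite strand, which had 0 to 4 fragments in any library, and 52.8% of the 50-base words of its longest transcript occur in transcripts of that gene.

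SNHG16 (ENSG00000163597, chromosome 17, 76557766 to 76565348, plus strand), host of SNORD1A, SNORD1B and SNORD1C, was the 1 gene of the 9 past the threshold in the other direction. It had 10.6, 11.0 and 10.5 FPKM in MDA-MB-231 and 9.22, 7.98 and 8.87 in Pep2-E3. All Pep2-E3 values lay below all parental ones, and the mean was 1.23-fold lower (log2 fold change -0.28 ± 0.06, SE). The call held under 12 of the 17 alternatives and was lost when any 1 of the 3 MDA-MB-231 libraries was left out, with log2 fold changes of -0.28, -0.26 and -0.29 in replicate order. Of its exon bases 30.6% lie in exons of ENSG00000284526 on the opposite strand, which had 1 to 8 fragments per library, and 44.7% of the 50-base words of its longest transcript occur there.

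The hosts of both classes did not pass the threshold. SNHG12 (ENSG00000197989, chromosome 1, 28578538 to 28583132, minus strand) was the least abundant of the 9 and had 5.49, 5.78 and 5.19 FPKM in MDA-MB-231 and 5.67, 5.74 and 5.04 in Pep2-E3. Both groups covered nearly the same range, and the log2 fold change was -0.0012 ± 0.07 (SE).

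GAS5 (ENSG00000234741, chromosome 1, 173863900 to 173868882, minus strand) was the most abundant. It was first described as a transcript that accumulates in growth-arrested cells, and its RNA can bind the glucocorticoid receptor. GAS5 had 79.0, 81.8 and 84.3 FPKM in MDA-MB-231 and 68.9, 78.8 and 73.3 in Pep2-E3. Pep2-E3 replicate 2 lay just under MDA-MB-231 replicate 1, so the groups were next to each other without overlap. The log2 fold change was -0.15 ± 0.06 (SE), and GAS5 passed the threshold under 0 of the 17 alternatives, in which its log2 fold change was between -0.20 and -0.10.

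**Figure D2:**
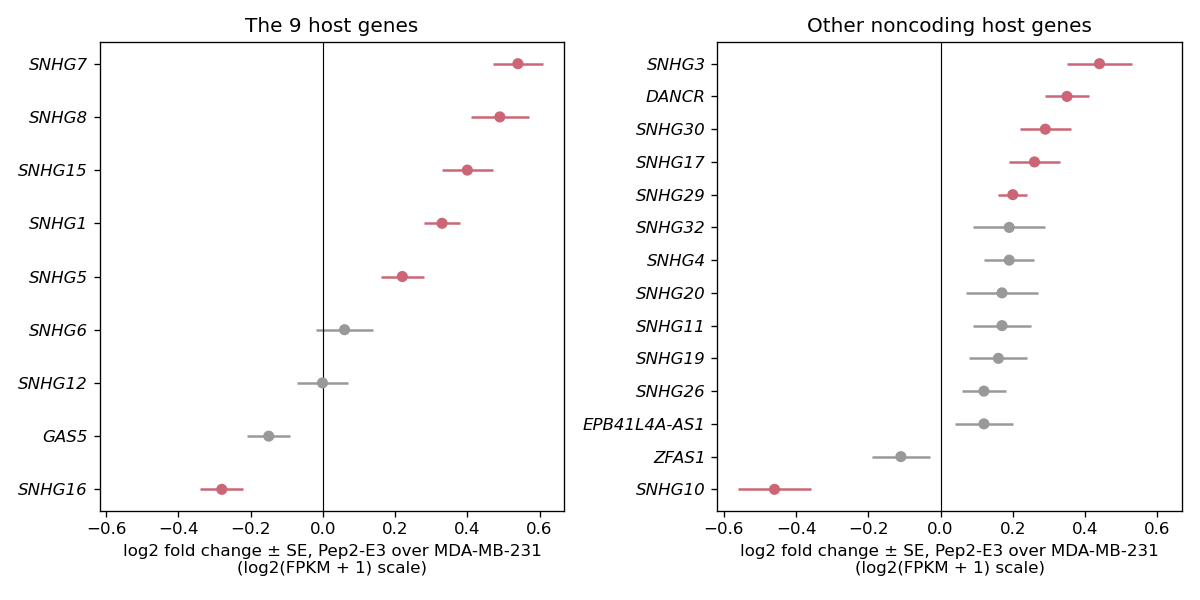
Log2 fold change between Pep2-E3 and MDA-MB-231 on the log2(FPKM + 1) scale with its SE, for the 9 host genes (left) and for 14 other noncoding snoRNA hosts that were tested (right); red marks genes past the adjusted threshold of 0.05, grey the others. SNHG7 (0.54) and SNHG16 (-0.28) are at the ends on the left, SNHG3 (0.44) and SNHG10 (-0.46) on the right.

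Over all 9 genes the values of the groups did not overlap in 7, 5 higher and 2 lower in Pep2-E3. Among all tested genes 48.8% had groups that did not overlap, 22.8% higher and 26% lower. The order of mean FPKM was the same at the top in both groups, GAS5, SNHG5 and SNHG1. In MDA-MB-231 the SD ranges of SNHG8 and SNHG6, next in the order, overlapped, as did those of SNHG16 and SNHG15. In Pep2-E3 the SD ranges of SNHG1 and SNHG8 overlapped. There SNHG7 stood above SNHG6 with overlapping SD ranges, whereas in MDA-MB-231 SNHG6 stood above SNHG7, and SNHG15 stood above SNHG16 in Pep2-E3. GAS5 was 14.9 times SNHG12 in MDA-MB-231 and 13.4 times in Pep2-E3. These levels are per base of the union of all annotated exons, which covers 95.6% of the span of SNHG1, 92.8% of SNHG12 and 92.6% of SNHG15 but 15.8% of SNHG5 and 26.4% of SNHG6. Where the union takes in most of the introns, the FPKM of the spliced RNA is understated, so levels compare between genes only roughly.

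The make-up of the summed signal shifted with these differences. The 9 genes summed to 249, 256 and 269 FPKM in the MDA-MB-231 libraries and to 292, 299 and 275 in the Pep2-E3 libraries, so all 3 Pep2-E3 sums were higher. Without GAS5 the sums were 170, 174 and 185 FPKM against 223, 221 and 201, a ratio of means of 1.22. GAS5 made up 31.7%, 32% and 31.4% of the sum in MDA-MB-231 and 23.6%, 26.3% and 26.7% in Pep2-E3. These shares follow from the values that chose the genes and carry no test.

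**Figure D3:**
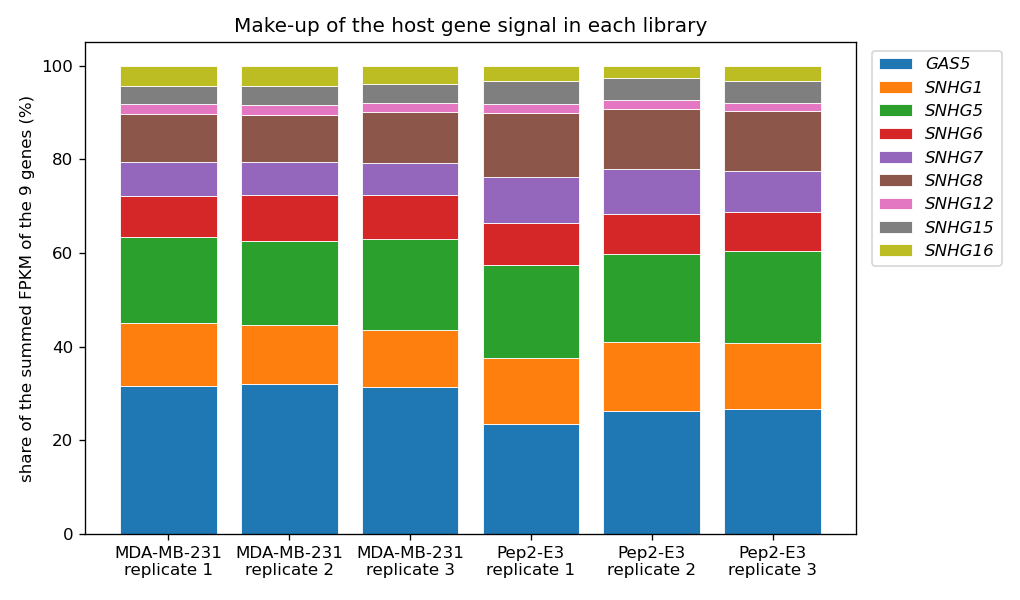
Share of each host gene in the summed FPKM of the 9 genes, in percent, for each library. The GAS5 segment at the base is 31.4% to 32% in the 3 MDA-MB-231 libraries and 23.6% to 26.7% in the 3 Pep2-E3 libraries.

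The spread between Pep2-E3 libraries was shared by most of the genes. In Pep2-E3 replicate 3 only SNHG16, 1 of the 9 genes, was above its group mean, and the median deviation was -0.10 on the log2(FPKM + 1) scale, against 0.00 over all tested genes. In replicates 1 and 2 of Pep2-E3, 7 genes each were above their group means, with median deviations of 0.07 and 0.05. Counting error would give a coefficient of variation of 2.23% for SNHG7 in Pep2-E3, where it was 9.05%, and of 2.65% in MDA-MB-231, where it was 0.611%. For SNHG1 the counting error was 1.93% and the observed value 6.07% in Pep2-E3, against 2.13% and 0.952% in MDA-MB-231. The parental spread was below counting error in SNHG16 as well, at 2.37% against 3.11%. In the other 6 genes it was above it, and in SNHG5 (7.71% and 3.76%) and SNHG8 (8.82% and 6.28%) the coefficient of variation was larger in MDA-MB-231 than in Pep2-E3.

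The 40 tested genes nearest to each host on its chromosome, 20 on each side, had median log2 fold changes between -0.17 (around SNHG8) and 0.09 (around SNHG12). The median was -0.04 around SNHG7, 0.01 around SNHG15, 0.05 around SNHG1, -0.05 around SNHG5, -0.04 around SNHG6, 0.06 around SNHG16 and -0.02 around GAS5. Since the hosts were chosen with their own differences known, their rank among these neighbours carries no weight. Single neighbours did differ, such as SLC3A2 beside SNHG1. ZBTB37, which starts 800 bases from GAS5 on the opposite strand and encodes a zinc finger protein, had 2.01, 2.19 and 1.61 FPKM in MDA-MB-231 and 1.10, 1.31 and 1.54 in Pep2-E3. It did not pass the threshold (log2 fold change -0.34 ± 0.11, SE, adjusted p = 0.056 in limma's test), and did so under 4 of the 17 alternatives. TRNAU1AP, which overlaps SNHG12 by 8 exon bases, did not pass (0.10 ± 0.08, adjusted p = 0.381 in limma's test).

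Among the 7169 other tested genes with a mean of at least 5 FPKM, those whose values over the 6 libraries were most like SNHG7 were RASSF1, CDIP1 and SF3B4. Their root mean square differences from it, on log2(FPKM + 1) centred on each gene, were 0.032, 0.036 and 0.036. For SNHG16 the nearest were EPG5, DCAF7 and MAN2B2, at 0.017, 0.027 and 0.029.

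Of 22 symbols of noncoding snoRNA hosts other than the 9, 20 were listed in the files and 14 were tested. In Pep2-E3 5 were higher and 1 lower, with a median log2 fold change of 0.18. The 5 higher make up 35.7% of the 14 tested, beside 14.6% of all tested genes, and all 6 make up 42.9%, beside 30.8%. The least firm of the 5 was SNHG17 (0.26 ± 0.07, SE, adjusted p = 0.0359 in limma's test). Its call held under 11 of the 17 alternatives and in 1 of the 6 settings that leave out a library. SNHG3, host of SNORA73A and SNORA73B, had 10, 11.7 and 12.4 FPKM in MDA-MB-231 and 17.0, 15.2 and 15.2 in Pep2-E3 (0.44 ± 0.09, SE, adjusted p = 0.0105 in limma's test). DANCR, which hosts SNORA26, rose from 13.0 ± 0.797 to 16.9 ± 0.334 FPKM (adjusted p = 0.00563 in limma's test). Both were past the threshold under all 17 alternatives.

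SNHG10 was the 1 lower gene of these, with 4.61, 5.59 and 4.81 FPKM in MDA-MB-231 and 3.68, 3.54 and 2.85 in Pep2-E3 (-0.46 ± 0.10, SE, adjusted p = 0.0150 in limma's test). Its call was lost in 1 alternative, without MDA-MB-231 replicate 2. SNHG29 (0.20 ± 0.04) and SNHG30 (0.29 ± 0.07) also rose, with adjusted p of 0.0173 and 0.0181 in limma's test, and their calls held in 3 and 4 of the 6 settings that leave out a library. ZFAS1 had a log2 fold change of -0.11 ± 0.08 and EPB41L4A-AS1 one of 0.12 ± 0.08, and neither passed (adjusted p = 0.335 and 0.300 in limma's test). SNHG9, named after its values were seen, did not reach the filter of a mean of 0.5 FPKM. It had 1 fragment in each parental library and 8, 7 and 5 in the Pep2-E3 libraries.

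Protein-coding genes with at least 2 snoRNAs inside them passed about as often as all genes did when both directions are counted together. Of the 51 tested, 12 were higher and 4 lower in Pep2-E3, which is 31.4% beside the 30.8% of all genes, with a median log2 fold change of 0.13. The directions were less even than over all genes. The 12 higher make up 23.5% of those tested, beside 14.6% of all genes, while 16.2% of all genes were lower. SNHG32, typed as protein-coding in GENCODE, is counted both here and among the 14 noncoding hosts, and did not pass. HSPA8, the constitutive HSP70 chaperone, had 245, 244 and 248 FPKM in MDA-MB-231 and 465, 429 and 418 in Pep2-E3 (0.83 ± 0.05, SE, adjusted p = 0.000245 in limma's test). RPL5, a ribosomal protein of the large subunit, rose 1.36-fold (adjusted p = 0.00148 in limma's test). C19orf48P (0.48 ± 0.08) and EIF4A1 (0.38 ± 0.07) also rose (log2 fold change, SE, adjusted p = 0.00623 and 0.0105 in limma's test). EIF4A1 had only 1.61 FPKM in MDA-MB-231 and 2.40 in Pep2-E3, and 43.4% of its exon bases also lie in read-through genes on the same strand such as SENP3-EIF4A1, so its listed value is uncertain.

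The lower members of this list were KHDC4 (-0.39 ± 0.08), RPSA (-0.24 ± 0.06), GNL3 (-0.18 ± 0.05) and DDX39B (-0.23 ± 0.06, SE), with adjusted p of 0.0118, 0.0236, 0.0322 and 0.0329 in limma's test. KHDC4 kept its call without each library in turn, while GNL3 kept it in 1 of those 6 settings and RPSA and DDX39B in 2. Of the exon bases of DDX39B 29.7% also lie in the read-through gene ATP6V1G2-DDX39B on the same strand, which makes its listed value less certain too. The nucleolar protein NCL (0.17 ± 0.06), the helicase EIF4A2 (-0.09 ± 0.05) and TPT1 (0.13 ± 0.06), a classic TOP mRNA, did not pass (adjusted p = 0.0539, 0.245 and 0.174 in limma's test).

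The proteins that bind snoRNAs showed small differences. Of the 4 box C/D core proteins, NOP56 (0.25 ± 0.06) and NOP58 (0.16 ± 0.05) rose (log2 fold change, SE, adjusted p = 0.0248 and 0.0469 in limma's test). Both genes are also on the list of protein-coding hosts. The methyltransferase FBL had 111 ± 8.82 FPKM in MDA-MB-231 and 110 ± 9.04 in Pep2-E3, and SNU13 did not pass (adjusted p = 0.925 and 0.192 in limma's test). The calls of NOP56 and NOP58 were not firm: that of NOP56 held in 2 and that of NOP58 in 1 of the 6 settings that leave out a library. In limma-voom on recovered fragments 1 of the 4 core proteins passed. The 2 that rose make up 50% of this short list, beside 14.6% of all tested genes that were higher and 30.8% in either direction.

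Of the 4 box H/ACA core proteins 0 passed the adjusted threshold in limma's test, 1.0 had an unadjusted p under 0.05 and 0.0 passed in limma-voom on recovered fragments. The log2 fold change was 0.12 ± 0.06 (SE) for the pseudouridine synthase DKC1, 0.03 ± 0.05 for NHP2, 0.16 ± 0.06 for NOP10 and 0.04 ± 0.12 for GAR1. Of 12 assembly factors, ZNHIT6 rose (0.34 ± 0.09, adjusted p = 0.0331 in limma's test), a call that held in 1 of the 6 settings that leave out a library. That is 8.33% of the list, beside 30.8% of all tested genes.

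Of 18 nonsense-mediated decay factors, 4 were higher and 1 lower in Pep2-E3, which is 27.8% beside the 30.8% of all tested genes, with a median log2 fold change of 0.07. The endonuclease SMG6 rose 1.51-fold, from 3.41 ± 0.352 to 5.14 ± 0.488 FPKM, and SMG9, a partner of the kinase SMG1, rose 1.41-fold (adjusted p = 0.00889 and 0.00950 in limma's test). DHX34 (0.23 ± 0.06) and EIF4A3 (0.28 ± 0.07) also rose, with calls that held in 2 and 3 of the 6 settings that leave out a library (adjusted p = 0.0204 and 0.0272 in limma's test). XRN1, the exonuclease that degrades decapped RNA, had 3.42, 3.82 and 3.01 FPKM in MDA-MB-231 and 1.6, 2.46 and 2.44 in Pep2-E3 (-0.49 ± 0.13, adjusted p = 0.0322 in limma's test). The call of XRN1 was lost when any MDA-MB-231 library was left out. UPF2 (0.05 ± 0.05) and SMG1 (-0.04 ± 0.06) did not pass (adjusted p = 0.495 and 0.656 in limma's test). The helicase UPF1 (0.20 ± 0.06) lay at the threshold without passing it (adjusted p = 0.05 as rounded, in limma's test). It passed under 7 of the 17 alternatives.

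Of 16 regulators of TOP mRNA translation, EIF4EBP2, an inhibitor of the cap-binding factor, was the 1 that passed (0.27 ± 0.05, adjusted p = 0.00831 in limma's test), which is 6.25% beside 30.8% of all tested genes. The list had a median log2 fold change of -0.05. LARP1, which binds TOP sequences, had 59.5 ± 1.32 FPKM in MDA-MB-231 and 57.7 ± 6.70 in Pep2-E3, and the kinase MTOR 6.80 ± 0.0919 and 7.65 ± 0.338 (adjusted p = 0.693 and 0.0783 in limma's test).

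**Figure D4:**
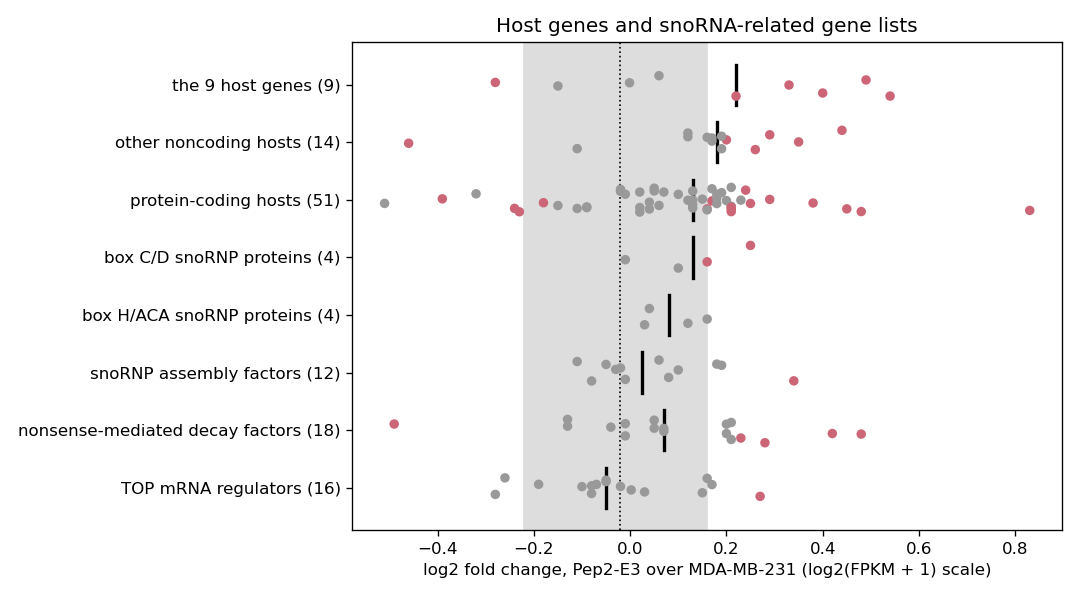
Log2 fold change between Pep2-E3 and MDA-MB-231 on the log2(FPKM + 1) scale for the 9 host genes and 7 related gene lists, 1 point per tested gene (number in brackets), red where past the adjusted threshold of 0.05; black bars are medians. The shaded band runs from -0.22 to 0.16, the quartiles of all tested genes, and the dotted line is their median of -0.02.

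The libraries held 17154511 to 18206694 fragments each, and the 9 genes had between 369 and 5406 fragments per library, 0.0785% to 0.0918% of a library in all. Whether the libraries of a group came from separate cultures is not said in the labels, and the p-values hold only for library-to-library spread, possibly of technical origin. Of the markers of a mesenchymal breast cancer line, VIM was at 174 and 158 FPKM in MDA-MB-231 and Pep2-E3 and CD44 at 63.3 and 62.4. ESR1, PGR and CDH1 were each under 0.2 FPKM in every library. Within that range PGR was higher in Pep2-E3 without overlap, at 0.0759 and 0.161 FPKM. Not all epithelial and luminal markers were low. KRT8 was at 50 and 64.5 FPKM and GATA3 at 0.846 and 2.10, both past the threshold as higher in Pep2-E3 (adjusted p = 0.00783 and 0.00416 in limma's test), and EPCAM was at 2.71 and 2.32 FPKM (adjusted p = 0.229). Their part in the differences of the host genes was not tested. Leukocyte and endothelial markers were near 0, with PTPRC at 0.142 and 0.0339 FPKM and PECAM1 at 0.0551 and 0.0300. PTPRC was unequal at this level, with 26, 18 and 26 fragments in the MDA-MB-231 libraries and 7, 2 and 7 in the Pep2-E3 libraries. The fibroblast marker PDGFRB was low but unequal, at 0.476 and 0.0841 FPKM. It had 62, 63 and 58 fragments in the MDA-MB-231 libraries and 9, 12 and 10 in the Pep2-E3 libraries, and was below the filter.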

How the data were processed

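Per the labels' protocols, total RNA was isolated by Trizol and sequenced from NEBNext Ultra libraries; poly(A) selection is not given in the sources used here. The submitters' processing notes name HISAT2 (2), Bowtie2 (2.2.3) and HTSeq (0.6.0), and give the build as mm8, a mouse build, while all 30099 deposited gene identifiers are human and in GENCODE release 29. The deposited values are FPKM per gene, computed by the authors. FPKM times the union exon length of GENCODE release 29 and the library total gave whole fragment numbers within 0.001 for 100% of values, and the depth of 17154511 to 18206694 fragments comes from these.

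For genes with a mean of at least 0.5 FPKM, log2(FPKM + 1) was tested with limma (3.58.1, R 4.3.3), with a trend of variance on level and Benjamini-Hochberg adjustment over 14235 genes. Fold changes on this scale understate the change of low genes. The procedure was tested on simulated data in which every gene and library had the same spread beyond counting error. The real spread differed between the groups in genes such as SNHG7, so that test does not cover this case. A gene of the lists was named if it was among the 4 with the smallest p in its direction or on a fixed list of names. NOP10, GAR1, SNHG9, SNHG17, SNHG20, SNHG32 and the notes on EIF4A1 and DDX39B fall outside this rule and were chosen after their values were seen. The 9 genes, the lists and the rules were chosen with earlier results of these data known. Alternatives were other scalings, filters, pseudocounts, limma-voom on the recovered fragments, a GC and length correction, a replicate block and leaving out each library.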

Additional observations from a re-analysis of the deposited data

How the results depend on the processing

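SNHG1, SNHG7, SNHG8 and SNHG15 kept their direction and passed the threshold under all 17 alternatives, and GAS5 kept its direction and did not pass under any. The count of host genes higher in Pep2-E3 was 4 or 5 throughout. The count lower in Pep2-E3, 1 in the report, was 0 with upper-quartile factors and with the replicate block, and 0 to 1 when a library was left out. No effect shared by same-numbered libraries was seen: the correlations of their deviations were -0.042, 0.0383 and -0.0609, and the highest of all was 0.0873. The labels do not say whether same-numbered libraries were prepared together, and these correlations cannot settle it. With the replicate block 2966 of all genes passed, against 4383 without it. SNHG5 and SNHG16 then lost their calls at log2 fold changes of 0.22 and -0.28. SNHG5 also lost its call with no filter, upper-quartile factors (0.26) and the block with GC and length correction (0.18). When a library was left out, 2474 to 4857 of all genes passed, with the 3 lowest counts, 2699, 2474 and 2893, without MDA-MB-231 replicates 1, 2 and 3. Of all members of the 7 related lists 29 passed, against 18 with no filter, 45 with GC and length correction, 13 with the replicate block and 12 to 34 when a library was left out. SNHG6 changed sign once, to -0.0019 without MDA-MB-231 replicate 1, and reached 0.13 without Pep2-E3 replicate 3. SNHG12, at -0.0012, was at 0.02 with RLE size factors, 0.04 with upper-quartile factors, 0.0046 once mitochondrial genes and the 50 of highest abundance were dropped, and from -0.03 (without MDA-MB-231 replicate 3) to 0.05 (without Pep2-E3 replicate 3) when a library was left out, with 0.03 without MDA-MB-231 replicate 2. The causes were not tested. With 3 libraries a group, a call on a difference as small as that of SNHG5 can turn on 1 library.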

Other observations

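The classes of snoRNA inside the hosts were compared after the values had been seen, so what follows is a description with no test. Over the 3 of the 9 genes with box H/ACA snoRNAs alone the log2 fold change had a median of 0.49 (0.40 to 0.54), and over the 4 with box C/D snoRNAs alone a median of 0.14 (-0.28 to 0.33). These genes were chosen with those values known. Among the other noncoding hosts the median was 0.22 over 6 with box H/ACA and 0.17 over 6 with box C/D snoRNAs alone. Of these 3 and 2 were higher and 0 lower in both. The 2 others tested, SNHG10 (-0.46, the 1 lower gene of that list) and SNHG20 (0.17, not past the threshold), held no gene named SNORA or SNORD and are in neither class. Classes were given by these names alone, so small Cajal body RNA genes, named SCARNA, were not classed. The count of 0 lower in both classes depends on this rule. Among protein-coding hosts the median was 0.13 over 13 with box H/ACA (3 higher, 2 lower), 0.08 over 26 with box C/D (4 higher, 2 lower) and 0.19 over 10 with both (5 higher, 0 lower). Another 1 held neither, and SNHG32 was counted only among the noncoding hosts here. Protein-coding hosts were classed by GENCODE names alone, and noncoding hosts by RefSeq names as well. The 2 of the 9 genes with both, SNHG12 and GAS5, did not pass.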
